A study of Mus musculus with 32 samples.

Results

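The genes described here were 127 protein-coding mouse transcription factor genes of developmental families, out of 54532 genes in the count table. They were chosen by gene symbol, as every Hox gene and the Nkx, Pax, Lhx, Onecut, Pitx, Dlx, Otx, En, Emx, Irx, Gata, Tbx, Pou3f and Pou4f genes and the family of Six4 and Six5, with Wt1, Shox2, Sox11 and Foxp4 added singly and Nkx6-2, Lhx8 and Six3 left out. The symbols alone decided membership, but the families were selected on the measured zQ175 against wild-type (WT) differences of these mice, which were already known. That comparison is therefore given below as a description, with no p-value. The count table came from the striatum of 32 mice aged 6 months. Each of 4 genotypes had 8 mice: WT, Msh3-/-, zQ175 and zQ175:Msh3-/-. Each group held 4 males and 4 females, except zQ175:Msh3-/- with 5 males and 3 females.

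In zQ175 mice the CAG repeat of the mouse's own Htt gene is expanded, as a model of Huntington's disease, an inherited disorder in which the spiny neurons of the striatum are the most vulnerable cells. Msh3 encodes a DNA mismatch repair protein that the repeat needs in order to lengthen in somatic cells, and Msh3 was inactivated by CRISPR in every cell of the Msh3-/- mice. All 4 groups were littermates on a C57BL/6J background from an intercross of zQ175:Msh3+/- males with Msh3+/- females, so no mouse could carry more than 1 zQ175 allele. The samples are bulk RNA of the dissected striatum, in which fewer cells of a type and less RNA per cell cannot be told apart.

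The homeobox, paired box, T-box, GATA and related proteins bind DNA and set the identity of body segments, organs and neuron classes in the embryo. Hox genes lie in 4 clusters and pattern the hindbrain, spinal cord and trunk, so the forebrain does not use them. In adult neurons, genes of this kind that do not belong to the cell's own identity are known to be kept silent by Polycomb repressive complexes, which bind CpG-rich promoters and place methyl groups on histone H3. Other members, such as the Dlx, Pou3f and Lhx genes, keep working in the adult forebrain.

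Sequencing depth was 12359347 to 25030335 reads on genes per mouse (median 16700247). Msh3 itself was at 10.4 to 14.2 counts per 1000000 reads (CPM, scaled by the TMM method) in the 16 mice labelled Msh3-/- and at 22.8 to 27.5 CPM in the others, with no overlap. The reads left in the knockout fell on a gene of which only part was deleted, and exons were not counted apart. Markers of spiny neurons were present in every mouse, and all 8 of the 8 listed, among them Drd1, Drd2, Penk and Ppp1r1b, were lower in zQ175:Msh3-/- than in Msh3-/- mice. Their summed level was 7383 to 9539 CPM in Msh3-/- and 4115 to 5101 CPM in zQ175:Msh3-/- mice. Their part in the results below was not tested.

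Promoters are shown for 5 members with more reads in the mice with the zQ175 allele and for Shox2, whose levels are described on their own, since CpG-rich promoter sequence is the feature that Polycomb targets are known to share. Each window runs from 250 bases before to 50 bases after the RefSeq transcription start on build GRCm38.p6, 5′ to 3′, with every CG dinucleotide in capitals. The Onecut1 window is at chr9:74861671-74861970 (+ strand), Sox11 at chr12:27342669-27342968 (- strand), Shox2 at chr3:66981722-66982021 (- strand), Hoxc4 at chr15:103034145-103034444 (+ strand), Nkx2-3 at chr19:43612075-43612374 (+ strand) and Pou4f1 at chr14:104467950-104468249 (- strand). The Hoxc4 window lies 15461 bases inside the longer gene that GENCODE M21 annotates.
Onecut1: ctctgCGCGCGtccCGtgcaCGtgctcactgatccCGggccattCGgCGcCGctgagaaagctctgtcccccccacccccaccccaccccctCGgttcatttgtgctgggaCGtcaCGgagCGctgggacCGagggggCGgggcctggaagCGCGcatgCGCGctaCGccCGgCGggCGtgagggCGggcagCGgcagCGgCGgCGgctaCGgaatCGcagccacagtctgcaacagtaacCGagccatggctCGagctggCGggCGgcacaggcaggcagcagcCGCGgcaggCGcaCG
Sox11: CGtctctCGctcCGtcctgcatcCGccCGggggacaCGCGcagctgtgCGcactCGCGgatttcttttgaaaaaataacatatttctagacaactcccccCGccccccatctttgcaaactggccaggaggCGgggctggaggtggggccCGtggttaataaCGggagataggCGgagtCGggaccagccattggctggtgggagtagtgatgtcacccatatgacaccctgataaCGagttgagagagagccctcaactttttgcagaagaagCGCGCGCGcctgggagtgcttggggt
Shox2: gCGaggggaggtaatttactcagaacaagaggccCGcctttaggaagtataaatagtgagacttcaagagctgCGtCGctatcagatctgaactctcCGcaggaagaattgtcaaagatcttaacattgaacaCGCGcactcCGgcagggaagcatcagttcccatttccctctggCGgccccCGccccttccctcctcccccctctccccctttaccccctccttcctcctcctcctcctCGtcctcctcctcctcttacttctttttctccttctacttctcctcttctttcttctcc
Hoxc4: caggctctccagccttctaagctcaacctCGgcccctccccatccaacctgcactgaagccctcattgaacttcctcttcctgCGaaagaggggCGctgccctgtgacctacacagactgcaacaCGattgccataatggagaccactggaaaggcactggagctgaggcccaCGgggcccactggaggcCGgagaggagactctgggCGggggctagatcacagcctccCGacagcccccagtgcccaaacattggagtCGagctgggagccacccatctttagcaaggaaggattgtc
Nkx2-3: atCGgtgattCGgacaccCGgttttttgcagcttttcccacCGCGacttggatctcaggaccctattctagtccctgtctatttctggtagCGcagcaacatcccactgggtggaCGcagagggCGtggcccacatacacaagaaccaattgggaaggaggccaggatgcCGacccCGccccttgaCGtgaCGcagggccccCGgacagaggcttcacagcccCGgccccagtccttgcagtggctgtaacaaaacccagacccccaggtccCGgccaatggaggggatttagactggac
Pou4f1: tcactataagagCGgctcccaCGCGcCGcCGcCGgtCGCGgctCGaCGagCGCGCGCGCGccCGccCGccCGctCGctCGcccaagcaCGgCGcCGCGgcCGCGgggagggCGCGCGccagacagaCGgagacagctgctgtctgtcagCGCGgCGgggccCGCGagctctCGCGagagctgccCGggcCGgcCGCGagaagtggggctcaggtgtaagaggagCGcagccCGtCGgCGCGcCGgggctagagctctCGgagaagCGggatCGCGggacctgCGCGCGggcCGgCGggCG

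The 6 windows differed widely in CG content. Pou4f1 had 57 CG dinucleotides in its 300 bases and Onecut1 had 38, against 21 in Sox11, 15 in Nkx2-3, 11 in Shox2 and 9 in Hoxc4. Of the 127 members, 81 had a RefSeq window, and 48 of these (59.3%) were CpG-rich, meaning over 50% G+C with an observed-to-expected CpG ratio above 0.6. The same held for 7825 of 16488 protein-coding genes of the table (47.5%). Of the 6 windows shown, those of Hoxc4 (ratio 0.333) and Nkx2-3 (0.559) were not CpG-rich by this measure. The others were, with ratios of 1.24 for Pou4f1, 0.951 for Onecut1, 0.817 for Sox11 and 0.614 for Shox2, the last just over the limit. Among the members, 18 of 23 windows were CpG-rich for those with enough reads to be tested, 25 of 48 for those with fewer reads, and 5 of 10 for those with no read at all. TAATTA, a core letter string bound by many homeodomain proteins that reads the same on both strands, stood in 5 of the 81 member windows (6.17%) and in 4.60% of the protein-coding windows. No histone mark or binding was measured in these mice.

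Most members were hardly expressed in the striatum. No read fell on 16 members in any of the 32 mice, which are 13 Hox genes with Nkx2-6, Gata5 and Pax4. Another 37 members had 1 to 10 reads in all 32 mice together. A total of 33 members passed the count filter and could be tested, and 78 had reads but stayed under it. A name for the set as genes silenced in neurons therefore does not hold for the members below, which were clearly expressed in the control striatum. For the others, few reads in bulk tissue do not show silencing, nor in which cells. Among the Hox genes, Hoxd1 had reads in 31 of the 32 mice. The most abundant members per transcript length in WT striatum were Pou3f1 at 65.4 transcripts per 1000000 (TPM), Dlx6 at 63.9 TPM and Pou3f3 at 55.0 TPM, followed by Dlx5 at 30.0 TPM, Lhx2 at 27.7 TPM and Foxp4 at 22.3 TPM.

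The number of members with at least 1 read was counted in each mouse. Between 55 and 62 members were seen per WT mouse and between 54 and 65 per Msh3-/- mouse, against 65 to 72 per zQ175 mouse and 60 to 70 per zQ175:Msh3-/- mouse. The medians were 59.5, 59.0, 71.0 and 66.0 members, and no zQ175 mouse had fewer than the WT mouse with the most. As the families were chosen on zQ175 against WT differences of these mice, this is a description. Over all genes the ranges overlapped, with 22415 to 23775 genes read per WT mouse, 21866 to 23955 per Msh3-/- mouse, 22413 to 23906 per zQ175 mouse and 22586 to 23620 per zQ175:Msh3-/- mouse. The median depth per mouse was lower in the zQ175 and zQ175:Msh3-/- groups (15903741 and 16225614 reads) than in the WT and Msh3-/- groups (17957805 and 17593185 reads). The order by total depth differed. Group totals were 145264025 reads for WT, 138025699 for zQ175, 131935204 for Msh3-/- and 128269281 for zQ175:Msh3-/-. By total, the zQ175 group was thus deeper than the Msh3-/- group.

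The zQ175 effect was tested in zQ175:Msh3-/- against Msh3-/- mice, which are on neither side of the comparison that was known when the set was proposed. These values are still not independent evidence, since results of all 4 groups existed by then. Of 33 members tested, 6 rose and 3 fell past both thresholds (adjusted p under 0.05 and a change of at least 1.2-fold), which is 9 of 33 where 10.6% of all 16610 genes tested were called. By direction, 4.68% of all genes rose and 5.96% fell. Onecut1, Onecut2, Wt1, Sox11, En2 and Nkx2-2 rose, and Pou3f1, Dlx6 and Nkx2-1 fell. The filter kept Wt1, Onecut1, Shox2 and Six4 only through the mice with the zQ175 allele, since fewer than 8 of the 16 other mice reached its cutoff of 0.599 CPM. Of the other 29 members, 4 rose and 3 fell. The median log2 change was 0.12 over the 33 members, 0.00 over those 29 and 0.01 over all genes. The unadjusted p was under 0.05 for 17 members.

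**Figure D1:**
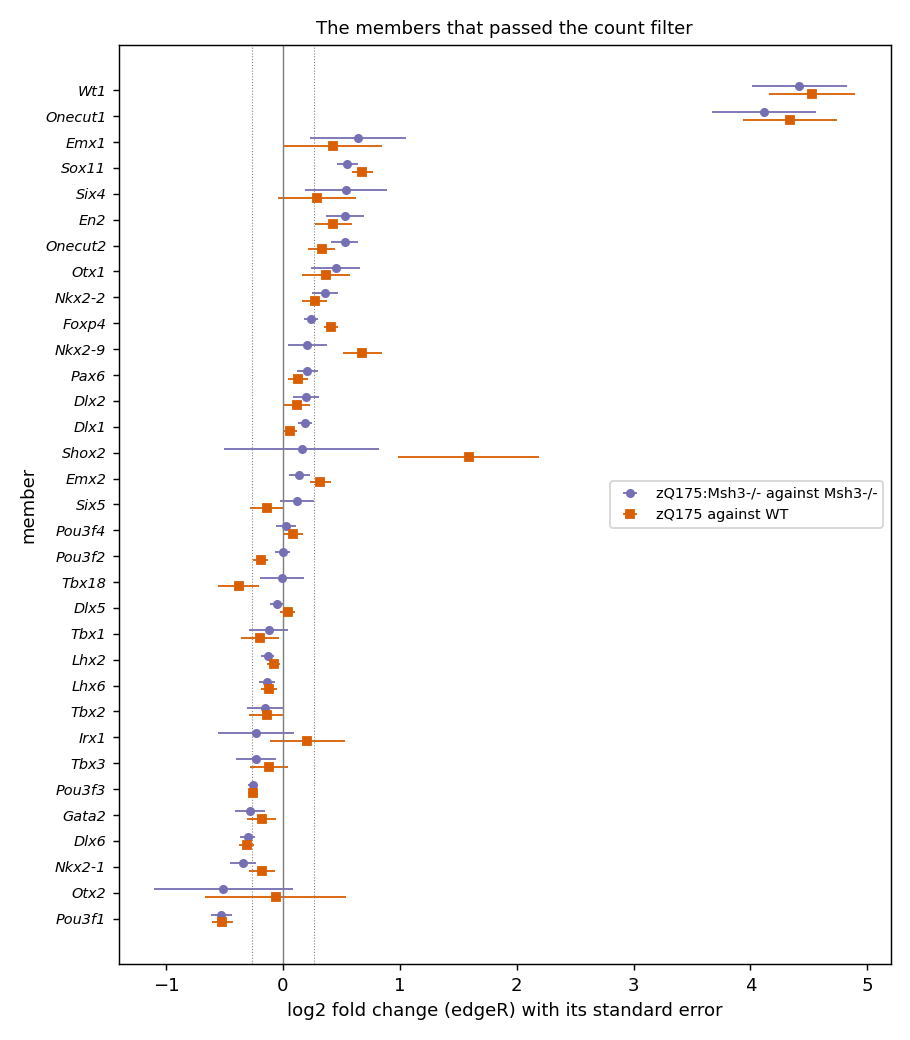
log2 fold change (edgeR) with its standard error for the 33 members that passed the count filter, in zQ175:Msh3-/- against Msh3-/- (circles) and zQ175 against WT (squares), ordered by the first. Wt1 and Onecut1 stand above 4 in both, and all others lie between -0.53 and 1.59. Dotted lines mark a 1.2-fold change.

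Onecut1 and Wt1 had by far the largest changes. Onecut1, a cut-homeodomain factor known from liver, pancreas, retina and spinal motor neurons, was at 0 to 0.311 CPM in WT mice (median 0) and at 0 to 0.315 CPM in Msh3-/- mice (median 0.0586). It was at 1.10 to 2.61 CPM in zQ175 mice (median 2.08) and at 0.911 to 2.32 CPM in zQ175:Msh3-/- mice (median 1.41). Every mouse with the zQ175 allele was thus above every mouse without it. Against Msh3-/-, the zQ175:Msh3-/- mice were 17.4-fold higher (log2 change 4.12, SE 0.44, edgeR adjusted p = 4.76e-09, or 3.80e-09 over 32560 genes with no filter). None of the 16 mice without the allele reached the filter's cutoff. In reads, Onecut1 had 13 in WT and 10 in Msh3-/- mice, against 282 with the zQ175 allele alone and 192 in zQ175:Msh3-/-. All 13 WT reads came from 3 males (7, 3 and 3 reads), while the fourth WT male and the 4 WT females had none.

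Wt1 encodes a zinc finger factor of the kidney, gonad and mesothelium. It was at 0 to 0.228 CPM in WT mice (median 0.0750) and at 0 to 0.160 CPM in Msh3-/- mice (median 0.0806). In zQ175 mice it was at 1.27 to 3.24 CPM (median 2.05) and in zQ175:Msh3-/- mice at 0.843 to 3.01 CPM (median 1.42), so again the mice with and without the allele did not overlap. The change in zQ175:Msh3-/- against Msh3-/- was 21.3-fold (log2 change 4.42, SE 0.40, edgeR adjusted p = 9.63e-11, or 4.81e-13 with no filter), and here too no mouse without the allele reached the cutoff. Its antisense neighbour Wt1os was listed at 0 reads in all 32 mice. An exact two-sided permutation test of 8 against 8 mice gave p = 0.000155 for Wt1, Onecut1 and Pou3f1, the smallest value that 12870 arrangements allow. The set was chosen with results of these mice known, and Wt1 and Onecut1 passed the filter only through mice with the allele. These p-values are therefore not independent evidence. Among all genes tested, 1.75% had every zQ175:Msh3-/- mouse above every Msh3-/- mouse and 3.64% the reverse.

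**Figure D2:**
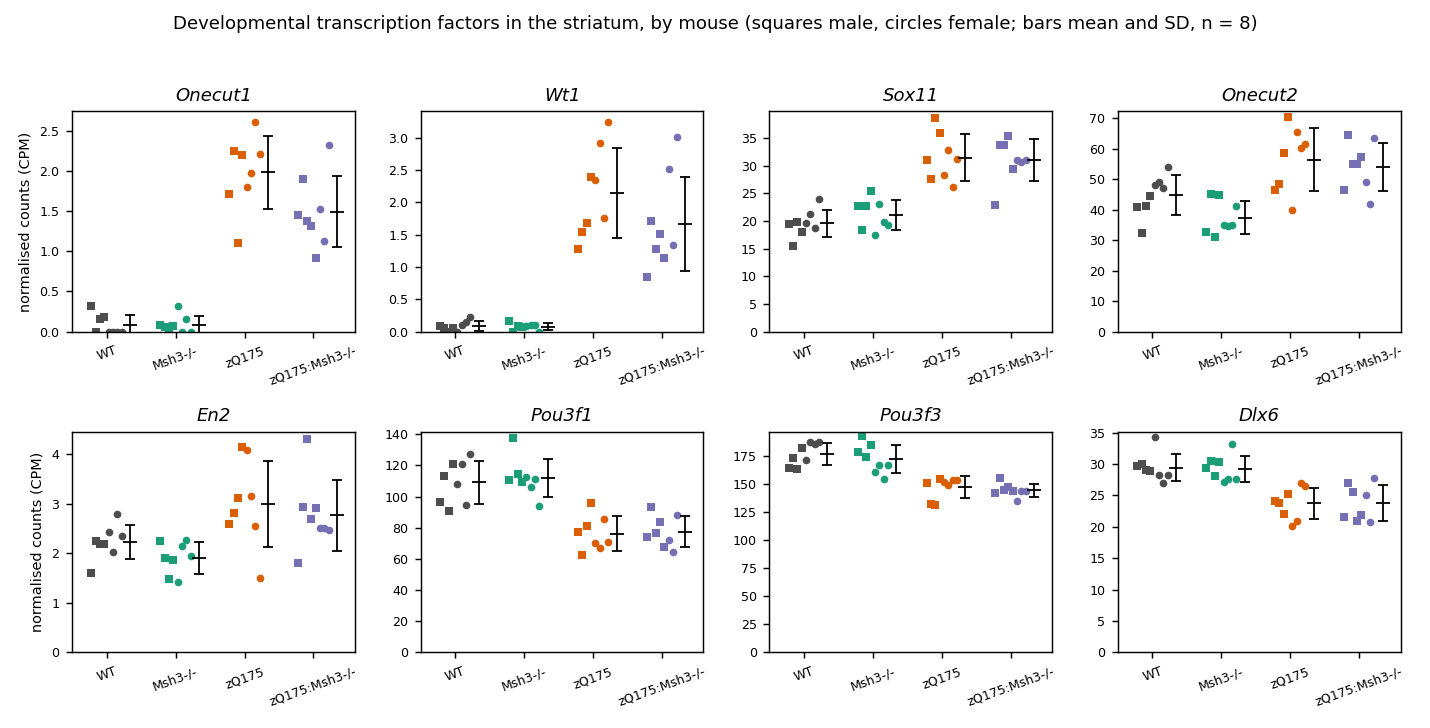
Normalised counts (CPM) of 8 members in each mouse, by genotype, with males as squares and females as circles, and the mean with SD (n = 8) beside each group. Onecut1 and Wt1 lie near 0 without the zQ175 allele and between 0.843 and 3.24 CPM with it. The Sox11, Onecut2 and En2 means are higher, and the Pou3f1, Pou3f3 and Dlx6 means lower, in both groups with the allele.

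Onecut2, the paralogue of Onecut1 and a factor of developing neurons, was already well expressed in controls and changed less. It was at 30.9 to 45.0 CPM in Msh3-/- mice (median 35.0) and at 41.9 to 64.5 CPM in zQ175:Msh3-/- mice (median 55.0), with some overlap between the groups. The log2 change was 0.53 (SE 0.11, edgeR adjusted p = 0.000913). WT mice ranged from 32.4 to 54.2 CPM and zQ175 mice from 40.1 to 70.3 CPM. The third paralogue, Onecut3, had 10 reads in the 32 mice.

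Sox11, an SRY-box factor of immature neurons, was at 17.5 to 25.4 CPM in Msh3-/- mice (median 21.2) and at 22.8 to 35.3 CPM in zQ175:Msh3-/- mice (median 31.0). It rose by a log2 change of 0.55 (SE 0.09, edgeR adjusted p = 1.54e-05), with 1 zQ175:Msh3-/- male at 22.8 CPM below the other 7, which started at 29.5 CPM. The WT range was 15.5 to 24.02 CPM and the zQ175 range 26.2 to 38.6 CPM, without overlap. Of 7 listed markers of subventricular progenitors and neuroblasts, 2 rose in the same comparison, Dcx (0.56, SE 0.09, edgeR adjusted p = 2.07e-05), a microtubule protein of migrating neurons, and Sox4 (0.29, SE 0.08, edgeR adjusted p = 0.00744), a relative of Sox11. The dividing-cell markers Mki67 and Top2a did not pass the test (edgeR adjusted p = 0.215 and 0.0974), with Top2a at a log2 change of 0.61 (SE 0.27). The list's median log2 change was 0.32, beside 0.01 over all genes. Its summed level was 275 to 316 CPM in Msh3-/- and 294 to 316 CPM in zQ175:Msh3-/- mice, most of it from Tubb3, a tubulin of neurons in general (means of 237 and 226 CPM). The part of these cells in the Sox11 value was not tested.

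En2, an engrailed homeobox factor of the midbrain and cerebellum, was at 1.42 to 2.27 CPM in Msh3-/- mice and at 1.81 to 4.29 CPM in zQ175:Msh3-/- mice. The log2 change was 0.53 (SE 0.16, edgeR adjusted p = 0.0168). Nkx2-2, a factor of the ventral neural tube and of oligodendrocyte precursors, was at 6.00 to 9.12 CPM and 8.08 to 12.4 CPM in the same groups, with a log2 change of 0.36 (SE 0.11, edgeR adjusted p = 0.0159). Both sets of mice overlapped. The En2 call was lost without zQ175:Msh3-/- male 3 (log2 change 0.40, edgeR adjusted p = 0.0633), and the Nkx2-2 call without the 4 libraries with the highest Prkcd described below (0.35, edgeR adjusted p = 0.0536). Among 17 alternative settings, the En2 call was lost in 5 and the Nkx2-2 call in 4. Nkx2-2 shares its locus with the antisense gene Nkx2-2os, and how the counting treated strand is not given in the sources used here, so their reads cannot be told apart.

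The members that fell were forebrain factors expressed in the control striatum. Pou3f1, a POU factor of forebrain neurons and myelinating cells, was at 94.1 to 138 CPM in Msh3-/- mice (median 111) and at 64.3 to 93.0 CPM in zQ175:Msh3-/- mice (median 75.5), without overlap. Its log2 change was -0.53 (SE 0.09, edgeR adjusted p = 3.80e-05). WT mice lay at 91.0 to 127 CPM and zQ175 mice at 62.2 to 96.0 CPM. Dlx6, a distal-less homeobox factor of GABAergic forebrain neurons, was at 27.1 to 33.1 CPM in Msh3-/- and at 20.7 to 27.7 CPM in zQ175:Msh3-/- mice, a log2 change of -0.30 (SE 0.06, edgeR adjusted p = 0.000665). Dlx6 lies opposite the antisense gene Dlx6os1, whose own log2 change was -0.07 (edgeR adjusted p = 0.341). In zQ175 against WT, as a description, Dlx6os1 was at -0.26. How the counting treated strand is not given, so reads of Dlx6 and Dlx6os1 cannot be told apart.

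Relatives of these genes moved less or not measurably. Pou3f3 fell short of the fold threshold at a log2 change of -0.26 (SE 0.04, edgeR adjusted p = 1.69e-05), with Msh3-/- mice at 155 to 193 CPM and zQ175:Msh3-/- mice at 135 to 155 CPM. Pou3f2 had a log2 change of 0.00 (SE 0.06) and Pou3f4 one of 0.03 (SE 0.09). Dlx5, the neighbour of Dlx6 on chromosome 6, was at -0.05 (SE 0.06, edgeR adjusted p = 0.593), and Dlx1 at 0.19 (SE 0.06, edgeR adjusted p = 0.0191), which is under the fold threshold. Differences between relatives were not tested.

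Nkx2-1, the factor that specifies the medial ganglionic eminence from which striatal interneurons come, was at 7.84 to 12.9 CPM in Msh3-/- and at 5.35 to 9.24 CPM in zQ175:Msh3-/- mice. Its log2 change of -0.34 (SE 0.11, edgeR adjusted p = 0.0239) was not called without Msh3-/- male 1 (edgeR adjusted p = 0.0787), Msh3-/- male 4 (0.0506), zQ175:Msh3-/- male 1 (0.0575) or zQ175:Msh3-/- male 5 (0.0624). The Nkx2-1 call was also lost under 9 of 17 alternative settings. Lhx6, which acts after Nkx2-1, was at -0.14 (SE 0.07, edgeR adjusted p = 0.138). Lhx8, left out of the set by its rule and a factor of cholinergic neurons, was at -0.38 (SE 0.12, edgeR adjusted p = 0.0166). Of 5 cholinergic markers, 4 fell in the same comparison, among them Chat by 0.32, Slc5a7 by 0.36 and Slc18a3 by 0.42 on the log2 scale. Isl1 was at 0.20 (edgeR adjusted p = 0.0487). The summed cholinergic level was 105 to 136 CPM in Msh3-/- and 83.6 to 109 CPM in zQ175:Msh3-/- mice, and its part in the Nkx2-1 value was not tested. Of 6 listed markers of GABAergic interneurons, 1 fell (Th, log2 change -0.43, edgeR adjusted p = 0.00468) and 0 rose, with a list median of -0.16. Sst, Npy, Nos1, Pvalb and Kit were not called. Of the 6 listed markers of pallidum and basal forebrain, to which Nkx2-1 and Lhx6 belong, 3 fell. Besides Nkx2-1 these were Gbx1 (log2 change -0.67, edgeR adjusted p = 0.0325) and Zic1 (-0.27, edgeR adjusted p = 0.0106), homeobox and zinc finger factors. The summed level of this list was 55.3 to 80.0 CPM in Msh3-/- and 43.1 to 60.6 CPM in zQ175:Msh3-/- mice, and its part in the Nkx2-1 value was not tested either.

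Foxp4, a forkhead factor expressed across the developing brain, was at 26.1 to 33.7 CPM in Msh3-/- and 28.5 to 38.2 CPM in zQ175:Msh3-/- mice, a log2 change of 0.24 (SE 0.06, edgeR adjusted p = 0.00136) that is just under the fold threshold. No call was made among the 15 tested members of the Tbx, Lhx, Emx, Otx, Irx, Gata and Pax families and of the family of Six4 and Six5, whose log2 changes ran from -0.51 for Otx2 to 0.64 for Emx1. The other excluded genes, Nkx6-2 and Six3, were at 0.09 (SE 0.11) and -0.16 (SE 0.07) and were not called.

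In zQ175 against WT, 8 of 33 members were higher and 3 lower past both thresholds, where 11.6% of all genes were called (4.70% higher and 6.89% lower). Since this comparison was in view when the set was proposed, the counts are a description. Of the 29 members that the filter did not keep only through mice with the allele, 6 were higher and 3 lower. Wt1 had a log2 difference of 4.53 (SE 0.37), Onecut1 of 4.34 (SE 0.40), Sox11 of 0.68 (SE 0.09) and Nkx2-9 of 0.68 (SE 0.16). Foxp4 stood at 0.41 (SE 0.06), En2 at 0.43 (SE 0.16), Onecut2 at 0.33 (SE 0.11) and Emx2 at 0.32 (SE 0.09). The En2 call was lost under 11 of 16 alternatives and 10 of 32 single-mouse leave-outs, the Onecut2 call under 6 and 3, and the Pou3f3 call under 7 and 7. The Dlx6 call was lost under 6 and the Emx2 call under 3 of the 16 alternatives, and both were kept in all 32 leave-outs. Pou3f1 was lower by -0.52 (SE 0.09), Dlx6 by -0.31 (SE 0.06) and Pou3f3 by -0.26 (SE 0.04). Nkx2-9, a factor of the ventral neural tube, was at 1.33 to 1.89 CPM in WT and 1.74 to 3.52 CPM in zQ175 mice, while Msh3-/- and zQ175:Msh3-/- mice were at 1.201 to 2.58 and 1.44 to 2.70 CPM. Emx2, a factor of the cortical primordium, was at 4.76 to 7.76 CPM in WT and 5.98 to 8.30 CPM in zQ175 mice. Reads of its antisense gene Emx2os, which had a log2 difference of 0.57, cannot be told apart from its own. The zQ175 and WT groups did not overlap for 4 members that were higher (Wt1, Onecut1, Sox11 and Foxp4) and 1 that was lower (Pou3f3), where 2.02% and 4.60% of all genes had no overlap in these directions. Among them, Wt1 and Onecut1 passed the filter only through mice with the allele. In zQ175:Msh3-/- against WT, which shares the WT mice, 6 members were higher and 4 lower past both thresholds, where 12.0% of all genes passed (5.50% higher and 6.49% lower). Of the same 29 members, 4 were higher and 4 lower.

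The Hox genes are described by reads, because none of the 39 passed the filter. The 4 clusters together had 59 reads in WT and 61 in Msh3-/- mice, against 225 in the zQ175 group and 144 in the zQ175:Msh3-/- group. Per mouse the sum was 5 to 12 in WT, 1 to 13 in Msh3-/-, 19 to 41 in zQ175 and 10 to 26 in zQ175:Msh3-/- mice. Every zQ175 mouse thus had more Hox reads than every mouse without the allele, while zQ175:Msh3-/- mice overlapped the controls. These counts too are a description, given how the families were chosen.

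**Figure D3:**
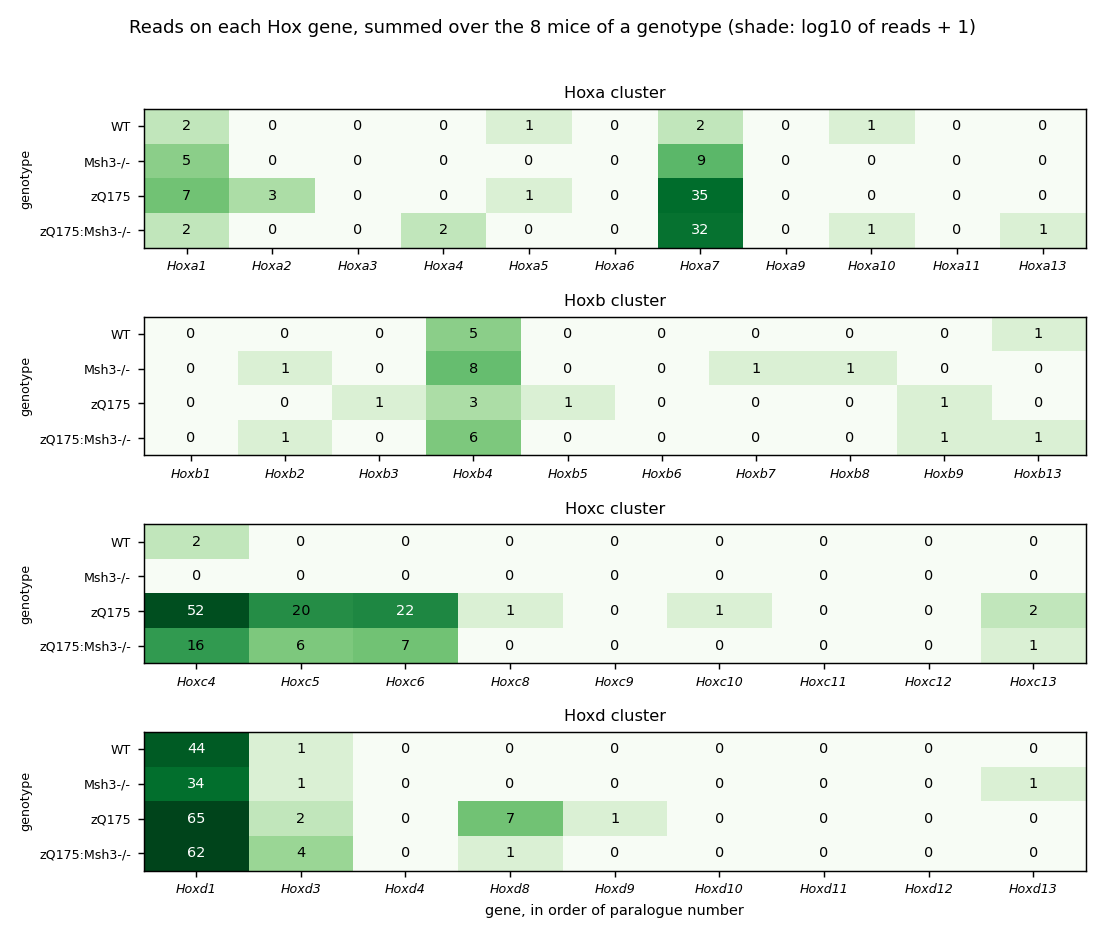
Reads on each of the 39 Hox genes, summed over the 8 mice of a genotype (rows), in order of paralogue number within each cluster (columns), shaded by log10 of reads + 1. The Hoxc reads stood at Hoxc4, Hoxc5 and Hoxc6 in the groups with the zQ175 allele, Hoxa7 had 35 and 32 reads there, and the Hoxb cluster had 6 to 11 reads in every group.

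The reads were spread unevenly over the clusters. The Hoxc cluster on chromosome 15 went from 2 reads in WT and 0 in Msh3-/- to 98 in zQ175 and 30 in zQ175:Msh3-/- mice. Of the 98, 52 lay on Hoxc4, 20 on Hoxc5 and 22 on Hoxc6, which are adjacent. The Hoxa cluster on chromosome 6 had 6, 14, 46 and 38 reads in the same order, mostly on Hoxa7. The Hoxb cluster on chromosome 11 had 6, 11, 6 and 9 reads, with no higher value in the mice with the allele. The Hoxd cluster on chromosome 2 had 45, 36, 75 and 67 reads, nearly all on Hoxd1, which was read in every group (44, 34, 65 and 62).

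The genes named in this paragraph and the next were chosen after their values were seen. Hoxc4 had 1 read in each of 2 WT mice and none in any Msh3-/- mouse. All 8 zQ175 mice had reads (1 to 15, median 0.319 CPM), 52 in all, and 7 of 8 zQ175:Msh3-/- mice did (0 to 4), 16 in all. Against the limit of 3 reads that a count of 0 over the Msh3-/- group allows, zQ175:Msh3-/- mice were 5.49-fold higher at equal depth. That value takes their 16 reads as exact, so it is not a lower bound. Hoxc6 had 0, 0, 22 and 7 reads in the order WT, Msh3-/-, zQ175 and zQ175:Msh3-/-, with reads in 8 zQ175 and 5 zQ175:Msh3-/- mice. Hoxc5 had 0, 0, 20 and 6 reads. The annotated Hoxc5 gene spans Hoxc6 on the same strand, so the counting could split their reads, and the pair may not be separate measurements. Hoxa7 had 2, 9, 35 and 32 reads and was seen in all 8 mice of both groups with the allele, against 2 WT and 4 Msh3-/- mice. Hoxd8 had 0, 0, 7 and 1 reads.

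Members outside the Hox clusters had similar counts. Nkx2-3, a factor of the spleen and gut, had no read in WT and 2 in Msh3-/- mice, against 30 in zQ175 and 17 in zQ175:Msh3-/- mice, each group with reads in 7 of 8 mice. Pou4f1, a POU factor of sensory and habenular neurons, had 12, 6, 61 and 36 reads. No zQ175 mouse had fewer than 4 reads and no control more than 2. Pou4f3, its relative in inner ear hair cells, had 12, 10, 52 and 24 reads. Tbx5, a factor of the heart and forelimb, had 0, 1, 9 and 5 reads. Six6, a factor of the eye and pituitary, had 0, 1, 11 and 3 reads, but 9 of the 11 came from 1 zQ175 female.

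**Figure D4:**
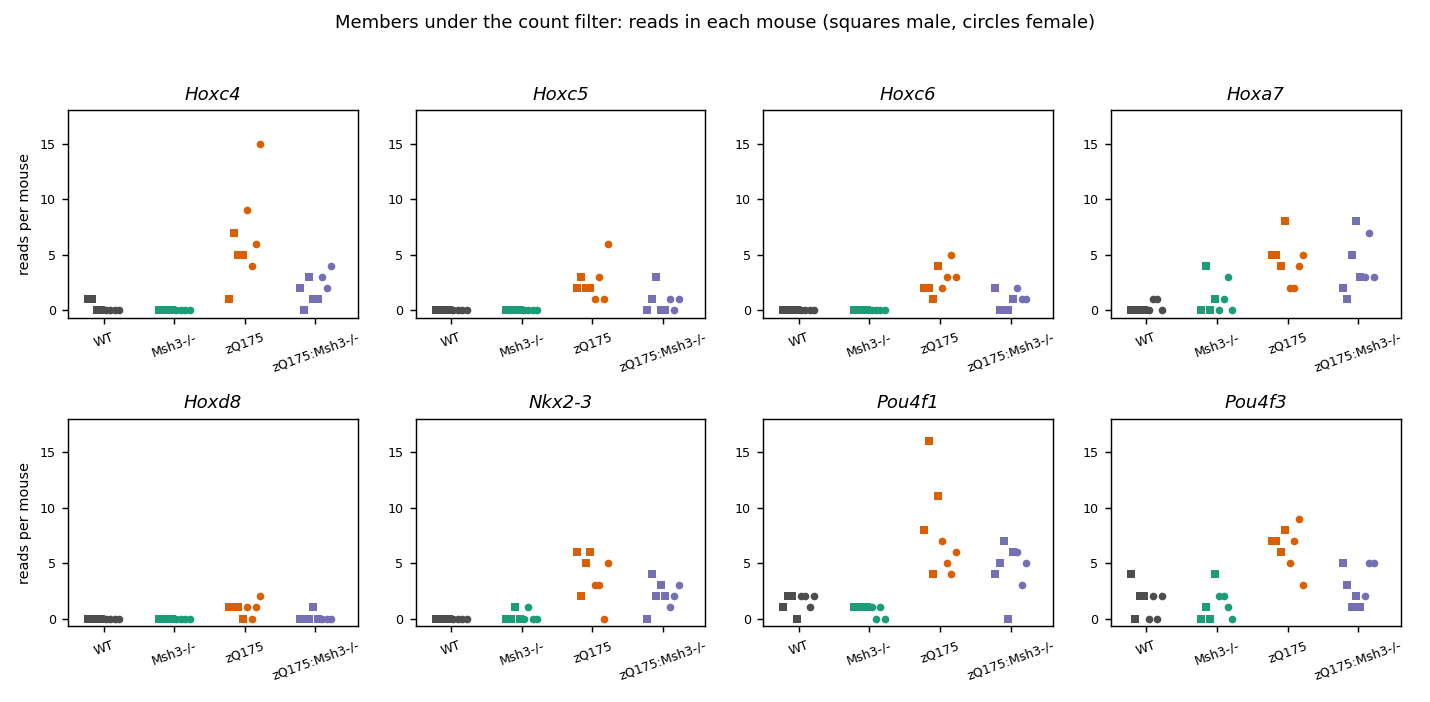
Reads in each mouse for 8 members under the count filter, by genotype, with males as squares and females as circles. Hoxc5, Hoxc6 and Hoxd8 are at 0 in all 16 mice without the zQ175 allele, and the highest value is 16 reads of Pou4f1 in a zQ175 male.

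Without the filter, all 111 members with reads could be fitted among 32560 genes. In zQ175:Msh3-/- against Msh3-/-, 11 members rose and 3 fell, where 2.05% and 3.05% of all genes did. In zQ175 against WT, 16 were higher and 3 lower, where 2.24% and 3.55% of all genes were, again as a description. The 5 additional members that rose were Hoxc4 (log2 change 4.14, SE 0.97, edgeR adjusted p = 0.00197), Hoxc6 (3.05, SE 0.99, 0.0386), Nkx2-3 (2.58, SE 0.78, 0.0231), Pou4f1 (2.38, SE 0.52, 0.000777) and Hoxa7 (1.72, SE 0.54, 0.0288). These fitted values depend on the prior count where a group is at or near 0. Hoxc5 (edgeR adjusted p = 0.0701), Pou4f3 (0.215), Tbx5 (0.344), Hoxd8 (0.509) and Six6 (0.699) were not called. By a count of detection, with at most 3 reads in the Msh3-/- group and reads in at least 6 zQ175:Msh3-/- mice, 3 of 62 members qualified (Hoxc4, Nkx2-3 and Tbx20), where 0.414% of all genes did. The same count for zQ175 against WT gave 7 of 61 members (Hoxa7, Hoxc4, Hoxc5, Hoxc6, Hoxd8, Nkx2-3 and Tbx5), where 0.316% of all genes did. Tbx20 was not among these 7. It had 8 reads in the zQ175:Msh3-/- group and 4 with the zQ175 allele alone, against 6 in WT and 2 in Msh3-/- mice. More Tbx20 reads thus came from WT than from zQ175 mice.

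Reads on the other members under the filter varied in both directions. Irx3 and Tbx6, among the 3 with the most reads under the filter, had 58 to 66 and 54 to 68 reads per group. In the order WT, Msh3-/-, zQ175 and zQ175:Msh3-/-, the 3 Pitx genes had 14, 11, 10 and 10 reads in all. Dlx4, a relative of Dlx6, had 33, 29, 61 and 60 reads, and Lhx1, a factor of kidney and Purkinje cells, had 5, 7, 24 and 7. Gata3, a factor of T cells and the inner ear, had 10, 3, 2 and 5. Dlx4, Lhx1 and Gata3 were named after their values were seen.

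The effect of Msh3 loss was compared in the presence and absence of the zQ175 allele. In zQ175:Msh3-/- against zQ175, none of 33 members was called by edgeR or DESeq2, 1 had an unadjusted p under 0.05, and 0.00602% of all genes were called. In Msh3-/- against WT, again none was called by edgeR or DESeq2, 2 had an unadjusted p under 0.05, and 0.00602% of all genes were called. The test of whether the zQ175 effect differed between Msh3 genotypes called no member by edgeR or DESeq2, with 1 at an unadjusted p under 0.05, and 0 of all 16610 genes. For Onecut1 the log2 difference of zQ175:Msh3-/- from zQ175 was -0.42 (SE 0.27), for Wt1 -0.36 (SE 0.24), for Sox11 -0.02 (SE 0.09) and for Pou3f1 0.02 (SE 0.09), all with edgeR adjusted p = 0.999. A p that misses the threshold does not show that the groups were alike.

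Several of the near-silent members had fewer reads in zQ175:Msh3-/- than in zQ175 mice. Hoxc4 had 16 against 52, Hoxc5 6 against 20, Hoxc6 7 against 22 and Pou4f3 24 against 52, while Hoxa7 had 32 against 35. In the fit without the filter the log2 differences were -1.59 (SE 0.49) for Hoxc4, -1.53 (SE 0.67) for Hoxc5, -1.45 (SE 0.63) for Hoxc6, -1.0 (SE 0.43) for Pou4f3 and -0.02 (SE 0.44) for Hoxa7. The edgeR adjusted p was 0.884 for the first 4 and 1.0 for Hoxa7, so none was called. These genes were named for their high counts in the same zQ175 mice.

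Shox2, a homeobox factor of thalamic and spinal neurons, had the largest difference of the 33 tested members in zQ175:Msh3-/- against zQ175. The study, which used DESeq2, reported Msh3 and Shox2 as the only genes changed in that comparison, so the Shox2 values are a description. Its 8 zQ175:Msh3-/- mice were at 0.456 to 1.10 CPM and its 8 zQ175 mice at 0.980 to 2.36 CPM, a log2 difference of -1.18 (SE 0.59). Unlike in the study, Shox2 was called neither by edgeR nor by DESeq2 in the fits of all 4 groups here. It was called by edgeR in a fit of only these 2 groups with no filter, an alternative chosen after seeing the data. Its levels in mice without the allele were split. WT male 1 was at 2.89 CPM and Msh3-/- females 2, 3 and 4 were at 1.18, 2.53 and 0.897 CPM, while the other 12 mice lay at 0 to 0.461 CPM. Those 4 were also the 4 libraries with the most Prkcd, a gene of thalamic relay neurons, at 28.2, 16.1, 25.0 and 17.3 CPM, while the next mouse was at 14.7 CPM. In zQ175 mice Prkcd was at 8.41 to 12.4 CPM. Prkcd was picked from the 8 listed thalamic markers after its values were seen. Slc17a6, another of them, was at 7.39 CPM in Msh3-/- female 1, which had no Shox2 read, and at 4.92 CPM in Msh3-/- female 2, with Shox2 at 1.18 CPM. Over all 32 mice, only 2 of the 4 with the most Shox2 were among the 4 with the most Prkcd, and Pearson's r of the log2 values was 0.31 and Spearman's rho 0.17. A fold change without those 4 libraries is not given, because they are also the 4 controls with the most Shox2. The summed level of the 8 thalamic markers was 91.0 to 136 CPM in WT, 91.2 to 132 in Msh3-/-, 82.3 to 98.4 in zQ175 and 80.4 to 92.2 in zQ175:Msh3-/- mice. Of the 8, Prkcd and Synpo2 fell in zQ175:Msh3-/- against Msh3-/-, with a list median log2 change of -0.25. In zQ175 against WT, Lef1 and Synpo2 were lower, with a list median of -0.01. Synpo2 had means of 33.7 and 31.4 CPM in WT and Msh3-/- mice. Its means were 21.4 and 22.3 CPM in zQ175 and zQ175:Msh3-/- mice. The part of thalamic tissue in the sum was not tested. Onecut1 had 7 of its 13 WT reads in WT male 1.

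**Figure D5:**
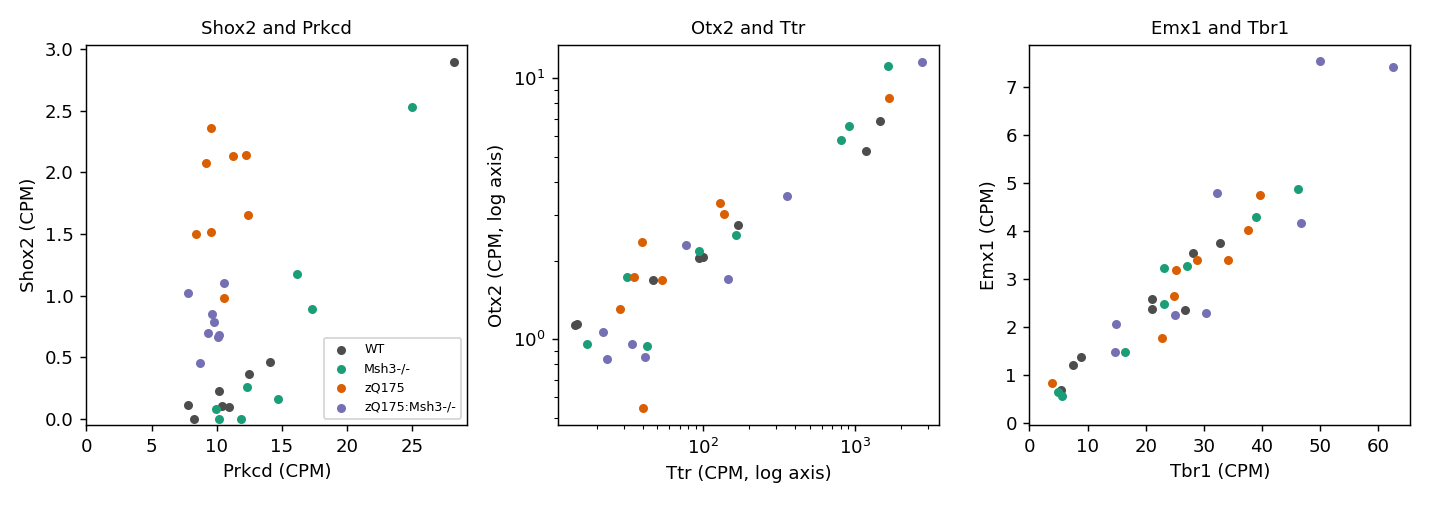
Each point is 1 mouse, with a member on the vertical axis and a marker of a neighbouring tissue on the horizontal axis, both in CPM, coloured by genotype; the Otx2 and Ttr axes are logarithmic. The 4 control mice with Shox2 at 0.897 CPM or more have the highest Prkcd, and Otx2 and Emx1 follow Ttr and Tbr1 in all genotypes.

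Otx2 and Emx1, named after their values were seen, followed neighbouring tissues in every genotype. Otx2, a factor of the choroid plexus, ranged from 0.545 to 11.5 CPM, and Ttr, the main secreted protein of that tissue, from 14.5 to 2723 CPM. The 4 mice with the most Otx2 were the 4 with the most Ttr, and the same held for the top 8. Pearson's r of the log2 values was 0.93 and Spearman's rho 0.86 over 32 mice, as a description. The summed level of the 6 choroid plexus markers was 32.5 to 1606 CPM in WT, 38.3 to 1866 in Msh3-/-, 49.6 to 1868 in zQ175 and 46.0 to 3017 in zQ175:Msh3-/- mice. Emx1, a factor of cortical excitatory neurons, ranged from 0.561 to 7.53 CPM, and Tbr1, another such factor, from 3.81 to 62.6 CPM, with r = 0.95 and rho = 0.94. The summed level of the 8 cortical markers was 171 to 606 CPM in Msh3-/- and 267 to 827 CPM in zQ175:Msh3-/- mice. The part of these tissues in other members was not tested.

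Polycomb genes were read beside the members, from lists chosen with earlier results known. Of 12 genes of Polycomb repressive complex 2, which methylates histone H3, none was called in zQ175:Msh3-/- against Msh3-/-. Ezh1 had a log2 change of 0.05 (SE 0.03) and Ezh2 of 0.06 (SE 0.10), the 2 catalytic subunits, and the summed level was 588 to 621 CPM in Msh3-/- and 574 to 598.5 CPM in zQ175:Msh3-/- mice. Of 22 genes of complex 1, which reads that mark and compacts chromatin, 2 rose and none fell. Cbx8, a chromodomain subunit of complex 1, rose by a log2 change of 0.77 (SE 0.08, edgeR adjusted p = 2.03e-09). Of 3 genes of the enzymes that remove the mark or are related to them, Kdm6b rose (0.31, SE 0.07, edgeR adjusted p = 0.00123), while Kdm6a was at -0.08 (SE 0.14). The medians of the first 2 lists were 0.04 and 0.03, beside 0.01 over all genes. The list of 3 had a median of 0.31, but it includes a gene of the Y chromosome. The zQ175:Msh3-/- group held 5 males and the Msh3-/- group 4, and the part of sex in that median was not tested.

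Hox proteins bind DNA together with TALE homeodomain partners, of which all 9 listed were expressed. Meis2, a marker of the striatal lineage, fell from a mean of 433 CPM in Msh3-/- to 344 CPM in zQ175:Msh3-/- mice (log2 change -0.33, SE 0.05, edgeR adjusted p = 7.13e-07). Meis1 rose (0.28, SE 0.08, edgeR adjusted p = 0.00659), and the other 7 were not called. The list's median log2 change was -0.07. Of 50 developmental regulators outside the rule's symbols, 14 could be tested, 0 rose and 1 fell in zQ175:Msh3-/- against Msh3-/-. The median over the 14 was -0.19, and Evx2, Hand2, Foxa2, Olig3 and Cdx2 were among those at 0 reads in all mice.

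The 7 members called in the same direction in both zQ175 comparisons (Sox11, Onecut2, Wt1, En2 and Onecut1 higher, Pou3f1 and Dlx6 lower) were averaged as z-scores over the 32 mice. Among the 5 genes most like that profile were Abhd1 (Pearson's r = 0.96), Polr2a (0.94), Sfmbt2 (0.93) and Fat1 (0.93). Because the profile differs between the mice with and without the allele, any gene with a large zQ175 difference will score highly, and these are given as a description over 32 mice that share their genotypes.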

How the data were processed

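Striatal RNA of 32 mice was sequenced as polyA libraries on an Illumina NovaSeq system. The authors deposited a table of gene counts and a second table whose columns each sum to 1000000, so its values are TPM although it carries another name. Both have 54532 genes with GENCODE-style IDs on build GRCm38.p6, per the labels. The aligner, the counter and whether strand was used are not given in the sources used here. The counts may be rounded estimates, since 4419 values have a TPM above 0 beside a count of 0. Symbols and coordinates came from GENCODE M21, in which 54495 IDs matched, and promoters from RefSeq (GRCm38.p6).

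Samples were grouped by the genotype in the labels, with sex and number from the titles. All 32 mice and 4 genotypes entered 1 model in edgeR 4.0.16 (robust quasi-likelihood fit and test, TMM scaling) on the deposited counts, with genes kept by filterByExpr (minimum count 10) and Benjamini-Hochberg adjustment over 16610 genes. A gene was called at an adjusted p under 0.05 and a change of at least 1.2-fold, the thresholds of the study, which used DESeq2. DESeq2 1.42.0, limma 3.58.1 on log2 TPM values (pseudocount 0.1 or 1), other scalings and filters, sex as a term or alone, a replicate block and leaving out each mouse were alternatives. CPM were scaled by TMM. The log2 CPM of the permutation tests and of the check on replicate numbers took a prior count of 2, while the fits kept the default prior count of edgeR. Exact permutation tests were two-sided. Where a group total was 0, the floor was 3 reads over the group, which covers the counting error of that group only. The script was tested on simulated counts. Nothing in the sources says that mice of a group were from separate litters, so p-values measure the spread between these mice.

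The members and lists were chosen with earlier results of these data known. Named genes were members called in either zQ175 comparison (up to 20), the 10 with the highest median TPM, members called for Msh3 loss or the interaction, the 4 listed singly, the 3 with the most reads under the filter and the 3 left out. Hoxc4, Hoxc5, Hoxc6, Hoxa7, Hoxd8, Nkx2-3, Pou4f1, Pou4f3, Tbx5, Tbx20, Six6, Otx2, Emx1 and others named for having few reads were chosen after their values were seen. Some genes counted in these lists are not reported here by name.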

Additional observations from a re-analysis of the deposited data

Results flagged for a closer look

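In 6 of 124 sets of 8 mice (1 gene in 1 genotype) the highest or lowest mouse stood apart by Dixon's test, where chance flags about 6.2, so the number itself is what chance gives. The share of the range taken by the gap was 0.586 for Sox11 in zQ175:Msh3-/- male 1, at 22.8 CPM against 29.5 to 35.3 CPM in the other 7 mice. It was 0.553 for Dlx6 in WT female 1, at 34.3 CPM against 27.0 to 30.1 CPM. It was 0.700 for Foxp4 in Msh3-/- male 3, at 33.7 CPM against 26.1 to 28.2 CPM. It was 0.558 for Dlx1 in zQ175 female 3, at 16.5 CPM against 19.7 to 22.7 CPM. It was 0.529 for Lhx8, which the rule leaves out, in Msh3-/- male 1, at 14.8 CPM against 7.33 to 10.2 CPM. It was 0.542 for Pou4f1 in zQ175:Msh3-/- male 4, which had 0 reads against 0.160 to 0.457 CPM. These 6 values came from 6 different mice.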

How the results depend on the processing

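The number of members called in zQ175:Msh3-/- against Msh3-/- was 9 and stayed within 1.5 times of that under 11 of 17 alternatives. It was 14 with no filter on low counts, 16 by limma on log2(TPM + 0.1) for genes averaging 0.1 TPM or more and 16 with no filter, 4 when tested against 1.2-fold by glmTreat, 5 in females alone and 2 at a fold change of at least 1.5. For zQ175 against WT it was 11, and moved to 19 with no filter on low counts, 18 by limma on log2(TPM + 0.1) with no filter, 6 by glmTreat, 7 in females alone and 4 at 1.5-fold. For zQ175:Msh3-/- against WT it was 10, and moved to 4, 6 and 3 under the last 3 of these. Fewer genes or samples enter the sex-limited fits and more genes the unfiltered ones. For other moves the cause was not tested. Leaving out each mouse gave 8 to 10, 9 to 12 and 8 to 11 members in the 3 comparisons. For zQ175:Msh3-/- against zQ175, 0 members were called in each setting but 1: with only the groups compared and no filter, an alternative chosen after seeing the data, Shox2 was called (1 member). For Msh3-/- against WT and the interaction, 0 were called in every setting run. The interaction has no value with only the groups compared. No direction of a named call reversed in any setting.

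Replicate numbers run within sex and do not pair the mice: over 45 same-numbered pairs the correlation of their deviations had a median of -0.0137 (-0.195 to 0.269), with 8 over 0.1. With the number as a replicate block, 7, 11 and 9 members were called in the 3 zQ175 comparisons and 0 in the others. Reads of 0 to 15 per mouse limit what can be said of the Hox genes.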
